A study of Homo sapiens with 4 samples.

Results

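Single-cell RNA-seq of A375 cells was used to describe 9 selenoprotein genes: *DIO2*, *SEPHS2*, *GPX1*, *GPX4*, *GPX3*, *SELENOP*, *SELENOW*, *SELENOM* and *SELENOK*. They were chosen by measured values, *DIO2* for its level in the RVT library and *SEPHS2* for its level in RVC and RVT, and the others as members of the same family. Of the 34241 gene identifiers listed in any library, 32991 were listed in all 4 libraries, among them 8 of the 9 genes, and *GPX1* was listed in S and RV alone. A375 is an established human melanoma line with the *BRAF* V600E mutation. The libraries were S (untreated cells), RV (cells under the BRAF inhibitor vemurafenib), RVC (vemurafenib with the MEK inhibitor cobimetinib) and RVT (vemurafenib with the MEK inhibitor trametinib). The authors describe RV, RVC and RVT as cultures made resistant by 10 to 14 days on drug. The drug was taken away 24 h before capture, when 10000 cells were loaded per library. Each condition was 1 droplet library, so no test between conditions was possible, and intervals are exact 95% intervals that cover counting error only.

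Selenoproteins carry selenocysteine, an amino acid in which selenium takes the place of the sulphur of cysteine, usually at the catalytic site. It is encoded by a UGA codon that would otherwise end translation, and its insertion requires a stem-loop in the 3′ untranslated region and dedicated factors. The family includes the glutathione peroxidases and thioredoxin reductases, which reduce peroxides and oxidised thiols, the iodothyronine deiodinases, which switch thyroid hormone on or off, and several proteins of the endoplasmic reticulum. *DIO2* encodes the deiodinase that converts the prohormone T4 to active T3 inside the cell. *SEPHS2* encodes selenophosphate synthetase 2, which makes the selenium donor for selenocysteine and is itself a selenoprotein.

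The codon that defines the family is shown for the 9 genes, since it is the feature that they share by sequence. The coding bases around the first selenocysteine codon were read from GENCODE 29 transcripts (GRCh38), 5′ to 3′, with the TGA in capitals.
DIO2: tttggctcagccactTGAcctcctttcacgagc
SEPHS2: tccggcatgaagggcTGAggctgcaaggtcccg
GPX1: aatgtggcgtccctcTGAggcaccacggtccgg
GPX4: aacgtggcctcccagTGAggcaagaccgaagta
GPX3: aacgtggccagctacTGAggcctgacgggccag
SELENOP: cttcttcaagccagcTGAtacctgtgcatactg
SELENOW: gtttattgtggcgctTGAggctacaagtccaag
SELENOM: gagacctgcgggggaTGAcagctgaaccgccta
SELENOK: ccaatggctggtggaTGAggaagg
The codon lay at position 133 of 273 in *DIO2*, at 60 of 448 in *SEPHS2* and at 92 of 94 in *SELENOK*, where it is close to the carboxyl end. *SELENOP*, which carries selenium through plasma, had 10 annotated selenocysteine codons and *DIO2* had 2, and the other 7 genes had 1 each. The 3 glutathione peroxidases shared the letters gtggc upstream of the codon and ggc after it, and ggc also followed it in *SEPHS2* and *SELENOW*.

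The libraries differed in ways that touch every comparison. As deposited, S, RV, RVC and RVT held 6695, 4328, 9266 and 10427 barcodes, in RVT more than the 10000 cells loaded. The paper gives fewer cells for S and RV and the same numbers for RVC and RVT. After filtering the libraries held 6334 (S), 4177 (RV), 7628 (RVC) and 8446 (RVT) cells with 25390117 to 58519152 UMIs in all (unique molecular identifiers, each standing for 1 captured transcript). The median cell had 8799.5 UMIs in S and 11553 in RV, but 3958 in RVC and 2864 in RVT. Its mitochondrial share was 3.16%, 3.06%, 3.58% and 5.77% in S, RV, RVC and RVT. The filters removed 903 and 1084 barcodes with too few genes and 478 and 580 with too high a mitochondrial share from RVC and RVT, against none and at most 2 in S and RV. RVC and RVT were also counted with another gene annotation than S and RV, so what separates both of them from both of the others cannot be told apart from that difference between the tables. Pairs of libraries shared 38 to 149 cell barcodes, 0.508% to 1.61% of a library. The 13 melanoma line markers summed to 12129, 17016, 6437 and 2193 CPM in S, RV, RVC and RVT, and 1, 1, 4 and 2 of them had no UMI. Most of each sum came from *S100A6*, at 9401, 14125, 5692 and 1601 CPM. *VIM* added 2433, 2590.4, 559 and 331 CPM, so the sums say little about the other markers. They differed among themselves: *SOX10*, a transcription factor of the melanocyte lineage, had 86.5, 39.9, 0 and 19.7 CPM and *S100B* 32.8, 6.96, 0 and 0.236, whereas *MITF* had 9.77 in S, 8.13 in RVC and 41.9 in RVT, *PRAME* had 35.0, 41.0, 57.2 and 67.5, and *MCAM* 7.69, 8.18, 31.3 and 31.1. The 8 fibroblast markers summed to 2.96, 2.31, 187 and 44.5 CPM, of which the collagen gene *COL3A1* had 121 CPM in RVC and 7.48 in RVT and no UMI in S or RV. The part of these differences in the values below was not tested.

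*DIO2* (chr14:80197527-80387757, minus strand, GRCh38) was close to absent from S and RV, low in RVC and abundant in RVT. S and RV each held 1 UMI of it, or 0.0171 CPM (0.000433 to 0.0952) and 0.0191 CPM (0.000483 to 0.106), whereas RVC held 43 (1.30 CPM, 0.944 to 1.76) and RVT 4040 (159 CPM, 154 to 164). CPM are the UMIs of a gene scaled to the same total in every library, and 3 UMIs correspond to 0.0513, 0.0572, 0.0910 and 0.118 CPM in the 4 libraries. The order was thus RVT above RVC above S and RV, the last 2 being alike within counting error.

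The RVT level of *DIO2* was 122-fold that of RVC, with an interval of 90.4 to 169, between libraries that were counted with the same annotation. Against S the log2 ratio was 13.18, but with a single UMI in S the interval ran from 1670.3-fold to 367870.3-fold. For RVC against S the log2 ratio was 6.25, with an interval from 13.0-fold to 3083-fold. *DIO2* was chosen for this pattern, and these values describe it. The gene overlaps an antisense gene, *DIO2-AS1*, which had at most 1 UMI in any library. None of the 39 barcodes with a *DIO2* UMI in RVC occurred in the RVT table. The 8 thyroid and pituitary markers summed to 1.44, 2.86, 1.36 and 3.47 CPM in S, RV, RVC and RVT, and the pituitary genes *TSHB* and *POU1F1* had no UMI in any library. The pituitary and placental hormone subunit gene *CGA*, of the same list, had 0, 1, 0 and 72 UMIs, or 2.84 CPM in RVT, and its part in the *DIO2* level was not tested.

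*SEPHS2* (chr16:30443631-30446181, minus strand) split the libraries into 2 pairs. S had 42 UMIs (0.718 CPM, 0.517 to 0.970) and RV 49 (0.934 CPM, 0.691 to 1.23), while RVC had 1847 (56.0 CPM, 53.5 to 58.6) and RVT 1416 (55.8 CPM, 52.9 to 58.8). Neighbours within each pair overlapped in their intervals, and the pairs lay far apart. The level was 78.0-fold that of S in RVC (57.5 to 109) and 77.7-fold in RVT (57.2 to 108), and RVT differed from RVC by a log2 ratio of -0.01.

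*SEPHS2* thus followed the pairs of libraries that differ in annotation and depth. Taking the 6506 genes whose CPM averaged 10 or more over the libraries, 5 were at least 32-fold higher in both RVC and RVT than in both S and RV, among them *SEPHS2* at 59.7-fold. The others were *COL3A1*, *MFSD14C*, *LUM* and *C1S*. *SEPHS2* was chosen for this pattern and averaged 10 CPM only through RVC and RVT, so nothing is read from the count. GENCODE 29 places no other gene over *SEPHS2* on either strand, but the annotations used in counting were not examined for one. For *SEPHS2*, the treatment and the annotation used in counting cannot be told apart.

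**Figure D1:**
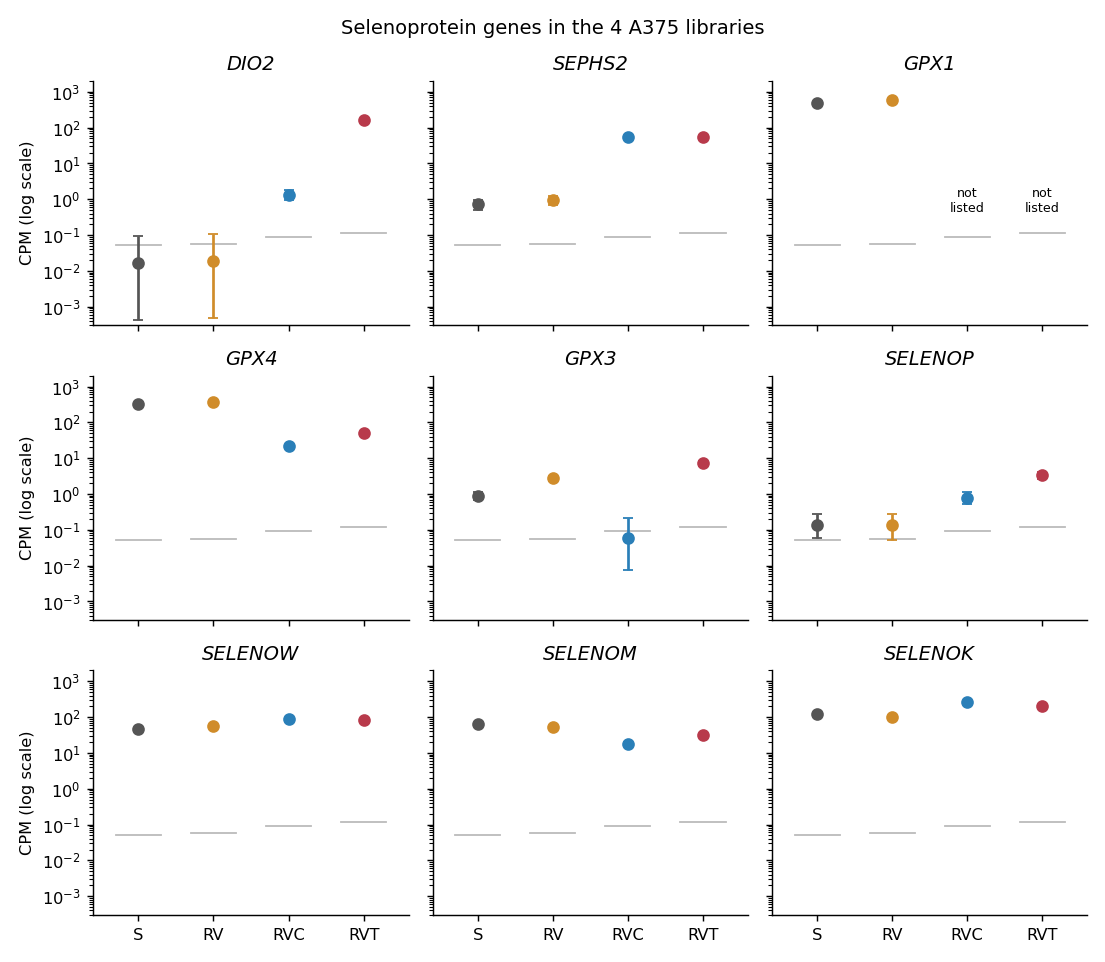
CPM of the 9 genes on a log axis in S, RV, RVC and RVT; points are library sums, bars exact 95% Poisson intervals, and grey lines the level of 3 UMIs. *DIO2* lies at 1.30 CPM in RVC and 159 in RVT, *SEPHS2* separates S and RV from RVC and RVT, and *GPX4* runs the other way, from 335 and 380.1 CPM to 21.9 and 51.4.

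The glutathione peroxidases behaved differently from one another. *GPX4* (chr19:1103926-1106791, plus strand), which reduces lipid peroxides in membranes and guards cells against ferroptosis, had 335, 380.1, 21.9 and 51.4 CPM in S, RV, RVC and RVT. It was 15.3-fold lower in RVC than in S (14.2 to 16.5) and 6.51-fold lower in RVT (6.16 to 6.89). It was 2.35-fold higher in RVT than in RVC (2.14 to 2.58), a log2 ratio of 1.23 that became 0.93, under 2-fold, with TMM factors. The level was thus lowest in RVC, and in RV it lay 1.14-fold above S.

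The last 500 bases of the *GPX4* transcript held 62.8% G and C, more than in 97.3% of the 6506 genes, whose median was 41.4%. Across these genes the log2 ratio to S fell with GC content, with a Spearman rank correlation of -0.35 in RVC and -0.41 in RVT and of 0.01 in RV. Relative to genes of like GC content, the log2 ratio of *GPX4* was -1.56 in RVC, against -3.94 before, and -0.32 in RVT, against -2.70. On that scale *GPX4* remained more than 2-fold below S in RVC and did not in RVT.

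*GPX3* (chr5:151020438-151028993, plus strand), the secreted peroxidase of plasma, differed in sign between the 2 drug pairs. The libraries held 52, 146, 2 and 184 UMIs of it, or 0.889, 2.78, 0.0607 and 7.25 CPM in the order S, RV, RVC and RVT. Its log2 ratios to S were 1.65 (RV), -3.87 (RVC) and 3.03 (RVT), and RVT lay 119-fold above RVC (32.6 to 994). The 4 intervals of CPM did not overlap, the order being RVC, S, RV and RVT. The end of its transcript held 58.2% G and C, and among genes of like GC content the log2 ratios were -2.49 in RVC and 4.79 in RVT.

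*GPX1* (chr3:49357171-49358600, minus strand), the cytosolic peroxidase, had 501 CPM in S (495 to 507) and 607 in RV (600.2 to 614), 1.21-fold higher in RV. It is not listed in the RVC and RVT tables and was not analysed there. Of the other peroxidases of the family, *GPX2* had at most 1 UMI per library and *GPX6* none.

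*SELENOP* (chr5:42799880-42887392, minus strand) was scarce throughout and highest in RVT. Its UMIs numbered 8, 7, 26 and 84 (0.137, 0.133, 0.788 and 3.31 CPM) in S, RV, RVC and RVT. S and RV were alike within counting error, whereas RVC was 5.77-fold above S (2.54 to 14.7) and RVT 24.2-fold (11.7 to 57.9). RVT was 4.20-fold above RVC (2.67 to 6.79). The transcript end of *SELENOP* held 28.2% G and C, and among genes of like GC content its log2 ratios to S were 1.89 in RVC, against 2.53 before, and 3.77 in RVT, a smaller ratio than the 24.2-fold above.

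The small selenoproteins stayed within a narrower range. *SELENOK* (chr3:53884410-53891988, minus strand), a membrane protein of the endoplasmic reticulum involved in protein palmitoylation, had 123, 103, 271 and 203 CPM in S, RV, RVC and RVT. Its ratio to S was 2.20-fold in RVC (2.14 to 2.27) and 1.65-fold in RVT (1.59 to 1.71). In RVC it fell under 2-fold when TMM factors, library sizes without ribosomal protein and mitochondrial genes or genes of like GC content set the scale, with log2 ratios of 0.93, 0.95 and 0.73 against 1.14.

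*SELENOW* (chr19:47778572-47784686, plus strand), a small redox protein whose mRNA is known to fall when selenium is short, had 46.5, 55.0, 90.6 and 81.0 CPM. It was higher than in S by 1.95-fold in RVC (1.85 to 2.05) and by 1.74-fold in RVT (1.64 to 1.85). Among genes of like GC content it passed 2-fold in both, with log2 ratios of 1.22 and 1.23. *SELENOM* (chr22:31104772-31120069, minus strand), a thioredoxin-like protein of the endoplasmic reticulum, had 63.3, 52.9, 18.2 and 31.9 CPM and was 3.48-fold lower in RVC than in S (3.19 to 3.80) and 1.98-fold lower in RVT (1.84 to 2.14). Its transcript end held 62.4% G and C, and among genes of like GC content the direction turned, to log2 ratios of 0.58 in RVC and 1.40 in RVT. No direction is therefore given for *SELENOM*.

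Counted over the 6 of the 9 genes that averaged 10 CPM or more (*DIO2*, *SEPHS2*, *GPX4*, *SELENOW*, *SELENOM* and *SELENOK*), 3 were at least 2-fold higher and 2 at least 2-fold lower in RVC than in S, where 22.5% of the 6506 genes were higher and 23.3% lower. The 2 lower were *GPX4* and *SELENOM*, of which *SELENOM* turned to 0.58 with GC centring. Of the 3 higher, *SELENOK* fell under 2-fold with TMM factors, library sizes without ribosomal protein and mitochondrial genes, or GC centring. *SELENOW* passed 2-fold in RVC with GC centring. In RVT 2 were higher and 1 lower, against 28.7% and 24.3% of the genes. With GC centring *SELENOW* and *SELENOM* joined the higher genes in RVT and *GPX4* left the lower, and with TMM factors *SELENOM* joined the lower at -1.50. In RV none of the 6 passed 2-fold in either direction, against 1.91% higher and 1.25% lower. Between RVT and RVC 2 were higher in RVT, *DIO2* and, except with TMM factors, *GPX4*, and 0 lower, against 15.2% and 11.9% of the genes. Since *DIO2* and *SEPHS2* were chosen on these ratios, nothing is read from the counts.

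The whole selenoprotein family has 25 genes in human, of which 24 were listed in all libraries and 14 averaged 10 CPM or more. In RVC 5 of the 14 were at least 2-fold higher than in S (*DIO2*, *SEPHS2*, *TXNRD1*, *SELENOT* and *SELENOK*) and 5 at least 2-fold lower (*GPX4*, *TXNRD2*, *SELENOH*, *SELENOS* and *SELENOM*), against 22.5% and 23.3% of all genes. With GC centring, where *SELENOM* turned, 5 were higher and 4 lower. The higher genes were then not the same 5: *SELENOK* left at a log2 ratio of 0.73 and *SELENOW* joined at 1.22. With TMM factors 4 were higher and 5 lower, as with library sizes without ribosomal protein and mitochondrial genes. In RVT 3 were higher (*DIO2*, *SEPHS2* and *TXNRD1*) and 4 lower (*GPX4*, *TXNRD2*, *SELENOH* and *SELENOS*), against 28.7% and 24.3%. These were 5 and 3 with GC centring and 3 and 6 with TMM factors. With library sizes without ribosomal protein and mitochondrial genes they were 3 and 5. *DIO2* and *SEPHS2* were chosen on these ratios and averaged 10 CPM only through the libraries where they were high, so nothing is read from the counts. The median log2 ratio of the 14 was 0.60 in RVC and 0.14 in RVT, beside 0.16 and 0.21 over all 6506 genes. With TMM factors the RVT median was -0.37 beside -0.30 over all genes.

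The thioredoxin reductases parted from each other. *TXNRD1*, the cytosolic enzyme and a known target of the oxidative stress regulator NRF2, had 25.8 CPM in S, 137 in RVC and 418 in RVT, and its RV level was within 2-fold of S. It was 5.31-fold above S in RVC (5.01 to 5.63) and 16.2-fold in RVT (15.3 to 17.1). *TXNRD2*, the mitochondrial enzyme, had 24.7, 51.4, 2.12 and 2.21 CPM, 2.08-fold above S in RV and 11.6-fold and 11.2-fold below it in RVC and RVT. Of the 14 genes *TXNRD2* alone passed 2-fold in RV, where 1.91% of all genes were higher and 1.25% lower. Its log2 ratio of 1.06 became 0.99 with library sizes without ribosomal protein and mitochondrial genes. Among genes of like GC content *TXNRD1* kept log2 ratios of 1.94 and 3.39 and *TXNRD2* of -2.16 and -1.72.

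*SELENOH*, a nucleolar protein, and *SELENOS*, a component of the machinery that removes misfolded proteins from the endoplasmic reticulum, were lower in both RVC and RVT. *SELENOH* had 143, 194, 26.2 and 48.4 CPM, and *SELENOS* had 132, 114, 32.9 and 37.8. Their transcript ends were not rich in G and C, at 39.8% and 38.0%, and both stayed more than 2-fold below S with TMM factors, with library sizes without ribosomal protein and mitochondrial genes and with centring on GC content. Summed over the 24 genes, which leave out *GPX1*, the family held 1044, 1133, 925 and 1288 CPM in S, RV, RVC and RVT. *GPX1* had a further 501 and 607 CPM in S and RV and has no value in RVC and RVT. No order of the libraries by family total is therefore given. *GPX4* made up 335 CPM of that sum in S, and *TXNRD1* and *DIO2* made up 418 and 159 CPM of it in RVT.

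**Figure D2:**
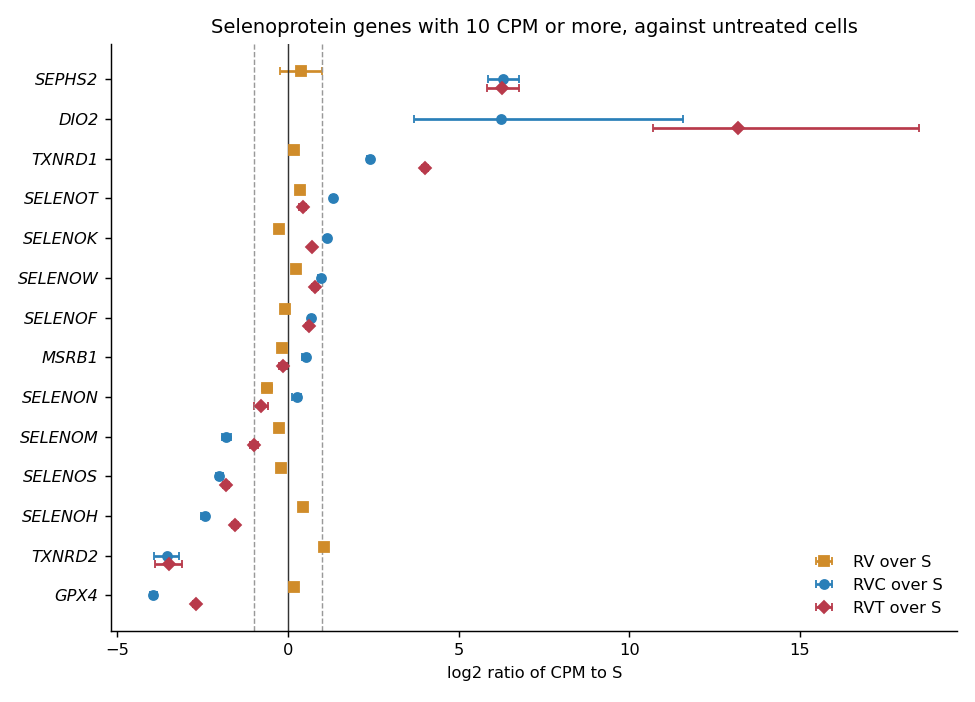
Log2 ratio of CPM to S for the 14 selenoprotein genes averaging 10 CPM or more, ordered by RVC, with exact 95% intervals and dashed lines at 2-fold; *DIO2* in RV is left out, having 1 UMI in each library. RV squares lie near 0 except *TXNRD2*, and *TXNRD1* and *DIO2* lie further to the right in RVT than in RVC.

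The factors that make and insert selenocysteine lay in both directions. Of the 10 genes listed for this pathway, 6 averaged 10 CPM or more. In RVC 3 of the 6 were at least 2-fold above S and 2 below, against 22.5% and 23.3% of all genes, and in RVT 2 were above and 2 below, against 28.7% and 24.3%. *SEPHS2*, *SECISBP2L* and *SEPHS1*, the 3 above in RVC, were under 10 CPM in S and RV and averaged 10 CPM only through RVC and RVT, so nothing is read from these counts. They became 2 and 2 in RVC with TMM factors, where *SECISBP2L* went from a log2 ratio of 1.10 to 0.88, and 2 and 1 with GC centring, where *SARS1* went from -1.04 to -0.81. *SECISBP2*, which binds the stem-loop of selenoprotein mRNAs, had 37.6, 42.8, 11.2 and 15.3 CPM, whereas its relative *SECISBP2L* had 7.91, 6.65, 16.9 and 35.1. *SECISBP2* was 3.36-fold below S in RVC and 2.46-fold in RVT, and *SECISBP2L* 2.14-fold and 4.44-fold above it. *SARS1*, which charges the tRNA with serine, had 198, 149.9, 96.4 and 64.5 CPM, and *SEPHS1*, a relative of *SEPHS2* without selenocysteine, had 7.30, 7.47, 17.8 and 11.9.

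*EEFSEC*, *SCLY*, *PSTK* and *SEPSECS* averaged under 10 CPM, so they were outside these counts and are described by their values. *EEFSEC*, the elongation factor for selenocysteine, had 9.55, 12.9, 1.79 and 0.866 CPM, and *SCLY*, which recycles selenium from selenocysteine, had 8.92, 4.65, 1.24 and 0.591. *PSTK*, the kinase that precedes selenocysteine formation on its tRNA, had 9.14, 8.94, 1.43 and 3.82. *SEPSECS*, the synthase of selenocysteinyl-tRNA, had 2.87, 2.52, 2.82 and 4.81. Among genes of like GC content the RVC ratio of *EEFSEC* went from a log2 of -2.42 to -0.04, and those of *SCLY* and *PSTK* stayed at -2.62 and -2.88.

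Of the 4 genes of selenium uptake, 3 averaged 10 CPM or more. *SLC3A2*, the heavy chain shared by several amino acid transporters, had 151, 183, 6.40 and 27.7 CPM. *SLC7A11*, the cystine transporter, had 27.4, 9.57, 12.4 and 41.2, and *LRP8*, the receptor that takes up SELENOP, had 7.76, 7.01, 14.3 and 14.9. *SLC3A2* was at least 2-fold below S in RVC and RVT and *SLC7A11* in RVC, where 23.3% and 24.3% of all genes were lower in RVC and RVT. In RV *SLC7A11* was also at least 2-fold below S, where 1.25% of all genes were lower. In RVC and RVT 0 of the 3 genes were at least 2-fold above S, against 22.5% and 28.7%. With equal weight for every cell it was 1 in RVC and 1 in RVT. *LRP8* averaged 10 CPM only through RVC and RVT, so nothing is read from these counts.

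Of the 22 genes listed for thyroid hormone transport, receptors, corepressors, targets and turnover, 8 averaged 10 CPM or more. In RVT 5 of the 8 were at least 2-fold higher than in S (*DIO2*, *KLF9*, *MARCHF6*, *WSB1* and *USP33*), against 28.7% of all genes, and 4 or 5 were so with the other scalings. In RVC 2 were higher (*DIO2* and *WSB1*) and 2 lower (*KLF9* and *SLC7A5*), against 22.5% and 23.3%, and these became 1 and 3 with TMM factors. In RV 0 were higher and 1 lower (*KLF9*), against 1.91% and 1.25%. *DIO2*, which was chosen for its RVT level, and *KLF9* averaged 10 CPM only through RVT, so nothing is read from the counts in RVT, RVC or RV.

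*KLF9*, a transcription factor gene that thyroid hormone and glucocorticoids are known to switch on, had 10.4, 3.96, 4.79 and 146 CPM in S, RV, RVC and RVT. *MARCHF6*, a ubiquitin ligase known to send the DIO2 protein for degradation, had 24.8, 25.1, 45.1 and 157 CPM. *WSB1*, which recognises DIO2 for another ubiquitin ligase, had 12.3, 12.8, 27.3 and 48.5, and *USP33*, a deubiquitinase of DIO2, had 10.2, 11.4, 13.9 and 30.1. *HR*, another known target of thyroid hormone, went the other way, with 7.37, 3.58, 0.0607 and 2.05 CPM. Its log2 ratio of RVT to S was -1.85 (-2.29 to -1.43) and became -0.08 among genes of like GC content.

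The receptors were low. The receptor gene *THRB* had 1.59, 1.45, 0.455 and 8.43 CPM and *THRA* 6.02, 6.23, 7.31 and 9.02. *SLC7A5*, which carries large neutral amino acids and thyroid hormone, had 101, 94.9, 6.25 and 73.5 CPM. The other deiodinases were not seen, *DIO1* having 1 UMI in RV and *DIO3* none.

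**Figure D3:**
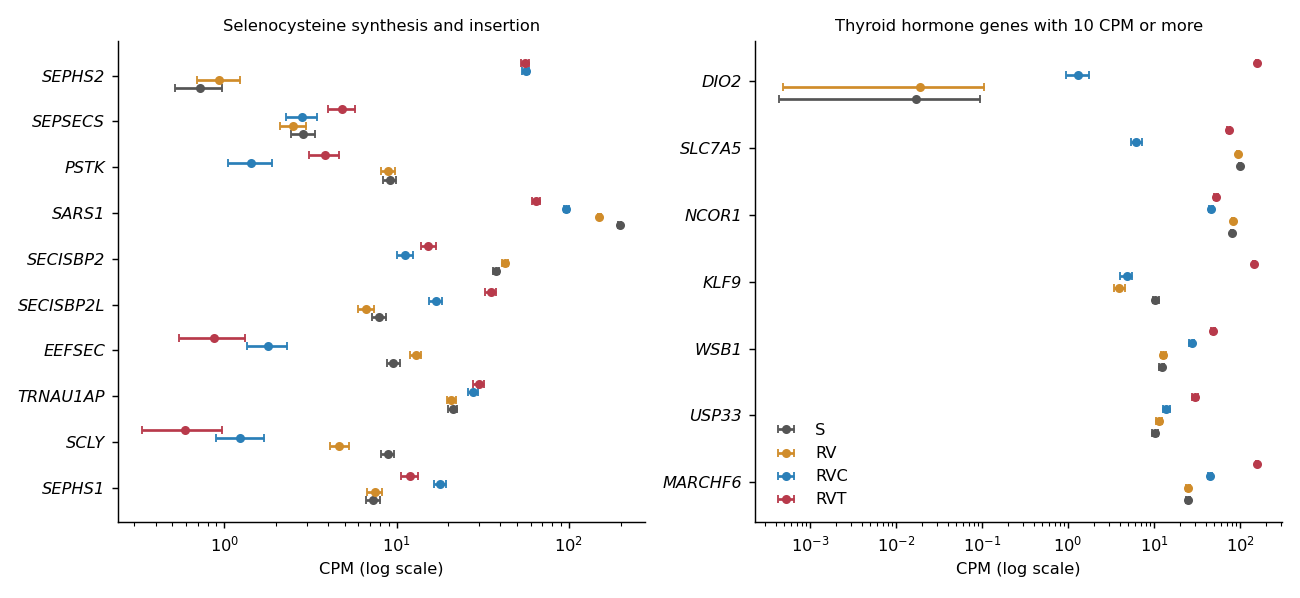
CPM on a log axis, with exact 95% Poisson intervals, of the 10 genes of selenocysteine synthesis and insertion (left) and 7 of the 8 thyroid hormone genes averaging 10 CPM or more (right), coloured by library. On the left *SEPHS2* is the gene with the widest gap between S and RVC, and on the right *DIO2*, *KLF9* and *MARCHF6* have their RVT points at 159, 146 and 157 CPM.

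A window before a RefSeq start of *DIO2* is shown because the gene is known to be induced through cyclic AMP, whose response element (CRE) is TGACGTCA. RefSeq (GRCh38.p14) gives 2 starts for *DIO2*, and the 250 bases before the upstream one (chr14:80212179-80212428, minus strand) are printed with the element and its half-sites TGACG or CGTCA in capitals.
DIO2 upstream: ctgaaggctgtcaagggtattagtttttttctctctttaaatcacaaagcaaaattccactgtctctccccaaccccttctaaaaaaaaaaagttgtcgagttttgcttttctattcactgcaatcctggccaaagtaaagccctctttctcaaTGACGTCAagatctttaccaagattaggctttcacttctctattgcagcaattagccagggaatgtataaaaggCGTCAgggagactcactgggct
The full element occurred once, with 88 bases between it and the start, and a further half-site lay 17 bases before the start. The window of the other *DIO2* start held neither. Over all 35093 windows of 250 bases, 1.65% held the full element on either strand and 21.2% a half-site, the full element counting as one. The windows of *SEPHS2* and of the other 6 genes with a window held no full element, but *SELENOK* had 4 half-sites, *SEPHS2* 3 and each *GPX4* window 1, and *SELENOM* had no window in the table. A match of letters is a description, and binding was not measured.

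The selenoproteins were also grouped by known behaviour under selenium shortage. Of the tested genes whose mRNA is known to fall, *SELENOH* was at least 2-fold below S in RVC and RVT, whereas *SELENOW* and *MSRB1*, a methionine sulfoxide reductase (28.9, 25.8, 41.5 and 26.3 CPM), were within 2-fold, *SELENOW* except with GC centring. Of the 3 tested genes whose mRNA is known to be kept, *TXNRD1* was above and *GPX4* and *TXNRD2* were below in both, *GPX4* in RVT except with GC centring. Of the 7 selenoproteins of the endoplasmic reticulum, *DIO2* included, 3 were at least 2-fold above S and 2 below in RVC, against 22.5% and 23.3% of all genes, and 1 above and 1 below in RVT, against 28.7% and 24.3%. With GC centring these were 2 and 1 in RVC, where *SELENOM* turned, and 2 and 1 in RVT, and with TMM factors 1 and 3 in RVT. As *DIO2* was chosen on its ratio, nothing is read from these counts. *SELENOT*, one of them, had 43.9, 55.8, 111 and 58.9 CPM, and *SELENOF*, a partner in glycoprotein folding, had 49.4, 46.7, 79.2 and 75.3.

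Of 10 genes listed for the cyclic AMP response, 5 averaged 10 CPM or more. In RVT 1 of them was at least 2-fold above S and 1 below, against 28.7% and 24.3% of all genes, and in RVC likewise, against 22.5% and 23.3%. In RV 0 were above and 1 below, against 1.91% and 1.25%. *CREM*, which encodes activators and repressors of this response, had 53.3, 38.4, 30.5 and 47.4 CPM in S, RV, RVC and RVT, and *NR4A1*, a target that responds fast, had 25.1, 7.09, 9.04 and 5.12. The gene below, *NR4A1*, averaged 10 CPM only through S, so nothing is read from these counts. With TMM factors and with GC centring they became 0 above and 2 below in RVC and 0 above and 1 below in RVT. The gene above was *CREB1*, at 2.14-fold S in RVC and 2.01-fold in RVT. In RVT *PDE4B*, *PDE4D*, *PER1* and *NR4A2* were also above S, by 1.75-fold, 1.22-fold, 1.46-fold and 1.40-fold, and all were below it in RVC. *NR4A3* was 5.60-fold above S in RVT, from 17 and 7 UMIs. *ATF1* lay 1.03-fold below S in RVT, and *SIK1* had at most 2 UMIs per library. The listed genes thus lay in both directions in RVT.

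Within the RVT library *DIO2* was spread unevenly over cells. At least 1 UMI was found in 2111 of 8446 cells, or 25.0% (24.1 to 25.9, Clopper-Pearson), whereas 1 common level in all cells would give 36.8% at the depth of each cell. At least 3 UMIs were found in 4.57% of cells, against 1.71% at a common level, and the highest cell held 26. The squared deviation from a common level was 3.18 times that of Poisson counts.

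*SEPHS2* showed no unevenness of that size. The shares can miss a smaller one, as its RVC level went from 43.5 to 74.2 CPM over the groups by mitochondrial share given below. At least 1 UMI was seen in 20.8% (19.9 to 21.7) of the cells in RVC and 15.2% (14.5 to 16.0) in RVT, beside 20.9% and 15.2% at 1 common level. With each cell thinned to 1500 UMIs, the shares with *SEPHS2* were 0.0474%, 0.120%, 8.17% and 7.87% in S, RV, RVC and RVT, and the share with *DIO2* was 0, 0, 0.180% and 16.5%. The *DIO2* share of 0 in S covers 6334 cells and that in RV 4177. *GPX4* was found in 91.6% and 96.9% of S and RV cells and in 8.82% and 14.0% of RVC and RVT cells, which became 38.6%, 43.0%, 3.36% and 7.37% after thinning.

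The more abundant of the other genes were compared in the same way. The ratio of squared deviations lay between 1.02 and 1.12 in RVC for *SEPHS2*, *GPX4*, *SELENOW*, *SELENOM* and *SELENOK* and between 1.01 and 1.03 in RVT for *GPX4*, *SELENOW* and *SELENOM*, but it was 1.80 for *SELENOK* in RVT, where the highest cell held 27 UMIs. In S and RV *GPX1* had 1.55 and 2.42. *GPX3* and *SELENOP* had too few UMIs in RVC, 2 and 26, for the ratio to show unevenness.

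**Figure D4:**
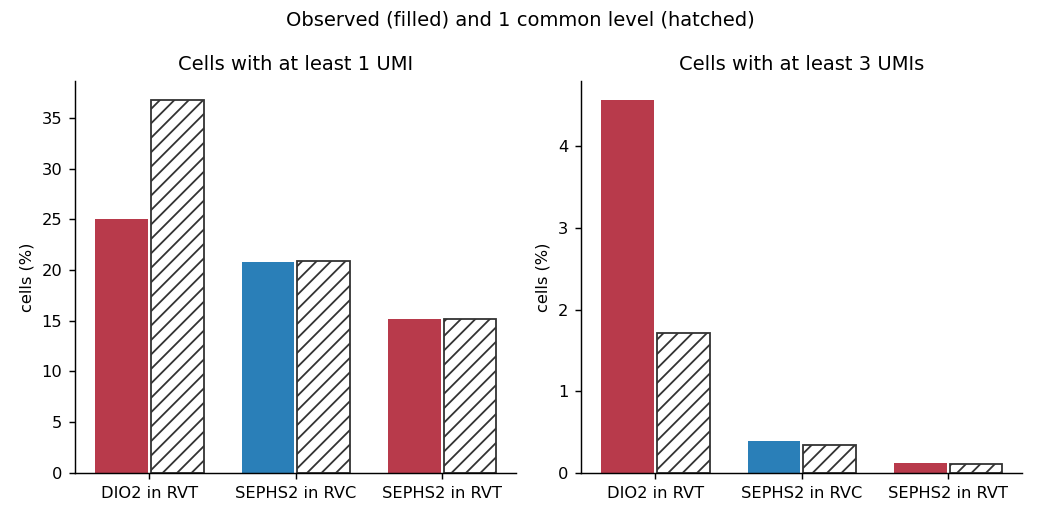
Percent of cells with at least 1 UMI (left) and at least 3 UMIs (right) of *DIO2* in RVT and *SEPHS2* in RVC and RVT; filled bars are observed, hatched bars are Poisson counts at 1 common level given the UMIs of each cell. *DIO2* has fewer cells with any UMI than a common level gives (25.0% against 36.8%) and more with 3 or more (4.57% against 1.71%), whereas the *SEPHS2* bars lie close together, which can miss a smaller unevenness.

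*DIO2* differed between classes of RVT cells. By cell cycle score, its level was 175 CPM (166 to 185) in 4897 G1 cells, 163 (149 to 177) in 2189 S-phase cells and 56.8 (41.3 to 76.3) in 516 G2M cells, with each cell thinned to 1500 UMIs. By share of mitochondrial UMIs, the 4 equal groups of cells from low to high had 122, 143, 171 and 208 CPM. By UMIs per cell the first 3 groups had 172, 176 and 173 CPM and the deepest 136. The level was thus lower in G2M cells and in the deepest cells, and higher in cells with more mitochondrial UMIs.

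Over the mitochondrial groups *SEPHS2* was alike within counting error in RVT and higher with a higher share in RVC. Its RVT groups by mitochondrial share had 55.1, 57.5, 52.8 and 58.0 CPM, and its G1, S-phase and G2M cells had 54.5, 57.9 and 34.9 CPM, the last from 27 UMIs (23.0 to 50.8). In RVC the groups by mitochondrial share had 43.5 (39.2 to 48.1), 50.3, 59.4 and 74.2 (68.1 to 80.8) CPM, while G1, S-phase and G2M cells had 58.3, 55.0 and 56.3. Cells of 1 library are not replicates, and these classes were not tested.

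**Figure D5:**
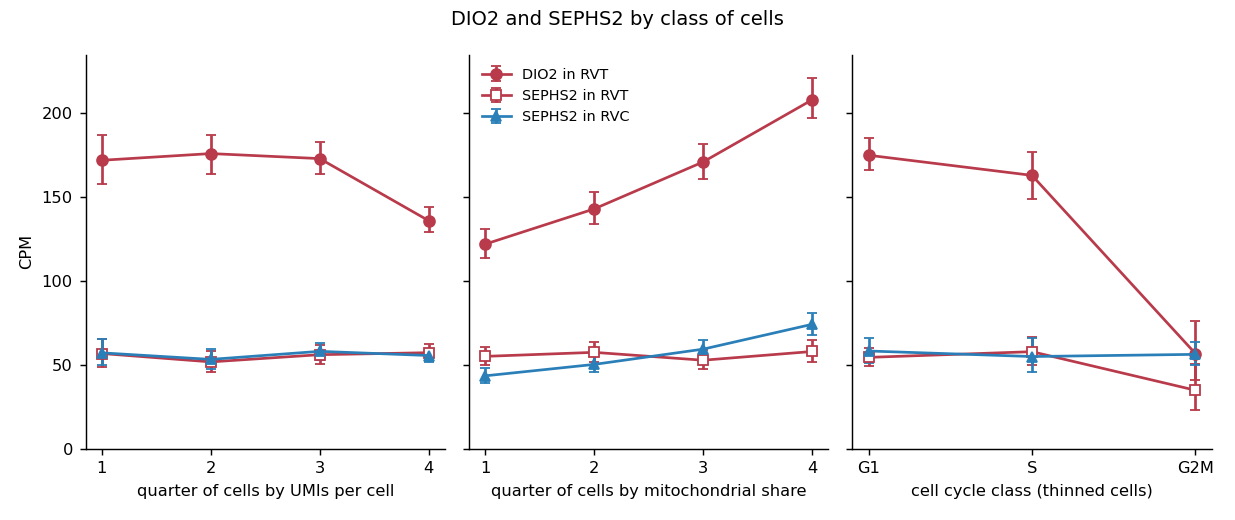
CPM with exact 95% Poisson intervals of *DIO2* in RVT and *SEPHS2* in RVT and RVC, by 4 equal groups of cells from fewest to most UMIs, by 4 from lowest to highest mitochondrial share, and by cell cycle class. *DIO2* goes from 122 to 208 CPM over the mitochondrial groups and lies at 56.8 in G2M cells. *SEPHS2* in RVT stays between 51.8 and 58.0 over the groups by UMIs and mitochondrial share and lies at 34.9 in G2M cells. In RVC *SEPHS2* goes from 43.5 to 74.2 over the mitochondrial groups.

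RVT cells with a *DIO2* UMI were set beside those without, 1257 and 6345 cells thinned to the same depth. Among the 849 genes at 100 CPM or above in RVT, the 5 highest ratios belonged to *IGFBP5* (2.86-fold, 2.62 to 3.13), *STC1* (2.09-fold, 1.87 to 2.33), *KYNU* (159 CPM against 105), *RDX* (1.49-fold) and *RHOQ* (1.43-fold). *IGFBP5* encodes a secreted binding protein of insulin-like growth factors and *STC1* a secreted glycoprotein hormone. The 5 lowest belonged to *PTTG1* (0.516-fold), *STMN1* (0.589), *KRT18* (0.591), *CKS2* (0.618) and *THBS1* (0.630), of which *PTTG1*, *STMN1* and *CKS2* act in mitosis and the cell cycle. G2M cells made up 2.86% of the cells with *DIO2* and 7.57% of those without. The median mitochondrial share was 5.97% with *DIO2* and 5.66% without, and the median depth before thinning 2949 and 3047 UMIs. The part of these differences in the ratios was not tested.

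Thyroid and selenium genes were compared between the same cells. *KLF9* had 188 CPM with *DIO2* and 143 without, 1.31-fold higher (1.16 to 1.47), and *SELENOW* 95.5 and 77.6, 1.23-fold higher (1.04 to 1.45). *SEPHS2* was at 1.12-fold (0.904 to 1.38), *GPX4* at 1.06-fold (0.843 to 1.31) and *TXNRD1* at 0.936-fold (0.864 to 1.01), with intervals that include 1. Of the rarer genes, *SEPSECS* was at 2.36-fold (1.15 to 4.58, 14 and 30 UMIs) and *TXNRD3*, a thioredoxin reductase of the testis, at 1.85-fold (1.08 to 3.06, 22 and 60 UMIs). All other thyroid and selenium genes compared in these cells had intervals that include 1. Among them were *HR* at 1.01-fold (0.302 to 2.68) and *THRB* at 0.713-fold (0.354 to 1.31). *MARCHF6* was at 1.10-fold (0.976 to 1.25) and *WSB1* at 1.06-fold (0.834 to 1.32). *KLF9* was the only thyroid gene compared whose interval left out 1. The intervals take no account of how many genes were compared. The share of the 849 genes whose interval leaves out 1 was not counted, so nothing is read from *KLF9* standing alone. A response to thyroid hormone was not tested. Of the 849 genes, 9 differed by at least 1.5-fold in either direction.

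The genes with profiles nearest to *DIO2* and *SEPHS2* over the libraries are given as a description, since both were chosen on these ratios. By Euclidean distance over the 3 log2 ratios to S, the 5 nearest of the 6506 genes were *C1S* (3.87), *VAV3* (4.13), *MFSD14C* (4.77), *TGFB2* (4.77) and *LUM* (5.22) for *DIO2*, whose ratios rest on 1 UMI in S. For *SEPHS2* they were *MFSD14C* (1.36), *C1S* (1.95), *TGFB2* (2.12), *PCDH10* (2.43) and *COLEC12* (2.53). *VAV3* had 3, 4, 0 and 1463 UMIs in S, RV, RVC and RVT, and *C1S* had 0.291, 0.210, 17.6 and 74.2 CPM.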

How the data were processed

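Droplet RNA-seq of A375 cells in S, RV, RVC and RVT (1 library each) was used. The authors used 10x v2 chemistry, and the submitters' processing notes name bcl2fastq 2.20.0.422, Cell Ranger and GRCh38. Raw counts of UMIs per gene and barcode, without normalization, were deposited.

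Barcodes with fewer than 500 genes or over 20% mitochondrial UMIs were removed, with the highest scrublet scores (scanpy 1.11.5) at 0.8% per 1000 barcodes. UMIs were summed per library. Intervals (SciPy 1.17.1) were exact Poisson for CPM, conditional binomial for ratios and Clopper-Pearson for shares. A ratio against a count of 0 takes the floor of 3 UMIs. Phases came from scanpy with the gene sets of Seurat 5.3.0, and TMM factors from edgeR 4.0.16. The ratio calculation was run on simulated Poisson counts with planted changes. These counts hold no uneven spread over cells, GC trend or annotation difference, so the run does not bear on those.

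The genes and lists were chosen with earlier results of these data known. Beside list genes, named genes were the 5 nearest profiles to DIO2 and to SEPHS2 and the 5 highest and lowest in cells with DIO2. Markers and genes of the libraries named as limits were also given. Some list genes are not reported here. Alternatives changed cell filters, scaling, cell weights, GC content and the CPM minimum.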

Additional observations from a re-analysis of the deposited data

Results flagged for a closer look

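Relative to S, *GPX3* had log2 ratios of -3.87 (RVC) and 3.03 (RVT), opposite directions under the 2 drug pairs. The RVC value rests on 2 UMIs and the S value on 52, and the difference was not tested, since each condition is 1 library.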

How the results depend on the processing

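With 8 alternatives for each ratio, *DIO2* in RVT over S kept its direction, with log2 ratios of 12.67 to 13.29, as did *SEPHS2* in RVC over S (5.82 to 6.29) and in RVT over S (5.65 to 6.33). Centring on genes of like GC content gave *SEPHS2* 5.82 in RVC and 5.65 in RVT, and TMM factors gave 5.76 in RVT, outside the counting intervals of 6.29 and 6.28. *SELENOM* in RVC over S turned from -1.80 to 0.58 with that centring. The share of RVT cells with *DIO2* went from 25.0% to 16.5% with thinning. The 2-fold selenoprotein count in RV over S, 1, became 0 with library sizes without ribosomal protein and mitochondrial genes and 2 with every gene above 3 UMIs in either library, while in RVC and RVT over S the counts of both directions together (10 and 7) stayed within 1.5 times. By direction, the 3 higher in RVT became 5 with GC centring and 6 with every gene above 3 UMIs in either library, and the 4 lower became 6 with TMM factors and 3 with GC centring. Of all genes past 2-fold in RVC over S, 49.1% were higher, against 37.5% with TMM factors and 38.7% with library sizes without ribosomal protein and mitochondrial genes. In RVT over S it was 54.1%, against 33.1% with TMM factors. TMM factors moved the median log2 ratio of all genes from 0.16 to -0.05 in RVC and from 0.21 to -0.30 in RVT. No paired analysis was possible because each group has 1 library. No library could be left out, and the spread between cultures is unknown.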
